A study of Mus musculus with 4 samples.

Results

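TRIM genes encode proteins of the tripartite motif family, most of them E3 ubiquitin ligases. They were taken here as every gene whose single symbol in the platform's probe annotation starts with Trim followed by a digit. The rule found 64 of the 22180 genes with a single-symbol feature, a feature being a set of probes that the array summarises as 1 value, and the brightest feature stood for each gene. Expression was measured on 4 one-colour whole-transcript arrays of bone marrow derived macrophages from mice. Marrow cells had been grown for 6 days with L-cell supernatant and then received 100 ng/ml of lipopolysaccharide (LPS), the bacterial cell wall component sensed by Toll-like receptor 4, for 2 hours. The 2 control arrays came from cells with floxed exon 1 of the gene for PP2ACα (a catalytic subunit of the serine-threonine phosphatase PP2A) and no Cre (PP2ACαfl/fl). The 2 knockout arrays came from cells with the same floxed alleles and a myeloid Cre (PP2ACαfl/fl;lyM-Cre). All cells had LPS and none of the controls carried Cre, so a response to LPS was not measured and effects of Cre cannot be told apart from those of the deletion. The labels call the arrays biological replicates without naming separate mice, and give no age or sex, so the p-values measure the spread between these arrays.

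A TRIM protein is built from a RING finger, which recruits the ubiquitin-loaded E2 enzyme, B-boxes, a coiled coil and a variable C-terminal part that picks the target. Macrophages use several members to attach ubiquitin to sensors of viral RNA, to bind retroviral capsids or antibody-coated virus, and to restrain signalling from Toll-like receptors. A subset of the genes is known for induction by type I interferon, which macrophages release after LPS through the adaptor TRIF. Others act as chromatin cofactors, in the cytoskeleton or in muscle.

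Values are log2 expression units, so a difference of 1 is a doubling. The targeted gene Ppp2ca read 8.25 and 7.59 in control and 4.36 and 3.39 in knockout arrays, a difference of -4.04 (SE 0.36, limma adjusted p = 0.0076). Median feature values of the 4 arrays lay between 3.50 and 3.57. The macrophage markers Adgre1, Csf1r, Cd68, Itgam, Cd14 and Mertk had means of 8.27 to 11.87 over the 4 arrays; Fcgr1 rose by 0.94 and none of the other 6 measured markers passed the test. None of the measured markers of B cells (means of 2.51 to 5.37), of T and NK cells (2.52 to 3.62) or of fibroblasts (1.96 to 4.10) was called. Of 4 measured monocyte markers 3 rose (Ms4a4c by 1.50, Ccr2 by 0.83 and Ly6c2 by 0.76) and F13a1 fell by 0.79. Summed on the linear scale, these 4 markers came to 1171 to 1281 in control and 1200 to 1255 in knockout arrays. F13a1 was the brightest in control arrays (mean 9.70), so its fall offset the rise of the other markers in this sum. Among 7 dendritic cell markers 3 were tested. Itgax fell by 2.54, whereas Ccr7 differed by 0.40 (limma adjusted p = 0.064) and Flt3 by 0.16, neither called. Itgax was the brightest in control arrays (mean 7.82). The sum of the 7, 292 to 310 in control and 125 to 126 in knockout arrays, therefore mostly followed Itgax. Zbtb46, Dpp4, Siglech and Xcr1 lay under the filter level of 3.53. Among 8 neutrophil markers 5 were tested. Mmp8, the brightest (mean 8.58), fell by 0.84. The other 4 were higher in knockout arrays by 0.11 to 0.34, and none was called. The sums, 600 to 652 in control and 394 to 431 in knockout arrays, therefore mostly followed Mmp8. Among 3 markers of the erythroid and megakaryocytic lineage Ppbp fell by 0.45. Pf4, the brightest (mean 8.92), differed by -0.19 (limma adjusted p = 0.51) and was not called. The sums, 497 to 654 in control and 488 to 496 in knockout arrays, mostly followed Pf4. The part of such cells in the results below was not tested, and a change in the number of cells of a type cannot be told apart from a change of RNA per cell.

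Of the 64 TRIM genes, 38 had a mean over the 4 arrays at or above 3.53, the median over all features, and were tested with the other genes that reached it, 12542 in all. A gene was called when its limma p-value, adjusted by Benjamini-Hochberg over all 12542 genes, was under 0.05. By this rule 6 TRIM genes rose in knockout macrophages and 0 fell: Trim30c, Trim30b, Trim30d, Trim12a, Trim30a and Trim21. That is 15.8% of the tested TRIM genes, against 6.79% of all tested genes called in either direction, 3.30% called higher and 3.49% called lower. A difference of at least 1.5-fold between group means, the cutoff in the study's design text, was reached by these 6 and by Trim34a, all higher in knockout, or 18.4% of the tested TRIM genes against 5.24% of all (2.59% higher and 2.65% lower). The median difference of the 38 was 0.19, against 0.0076 over all tested genes. Knockout arrays lay on one side of the control arrays for 29 of the 38 (76.3%, against 55.3% of all tested genes). They lay above for 19, against 28.8% of all genes, and below for 10, against 26.5%. All 6 called genes lie on chromosome 7, which holds 15 of the 64 members and 11 of the 38 tested. Chromosome 11 holds 10 members, of which 7 were tested and 0 called. An unadjusted limma p under 0.05 was found for 20 of the 38 tested TRIM genes (52.6%, against 24.7% of all tested genes). Of these 16 were higher in knockout arrays, against 12.6% of all genes, and 4 lower, against 12.1%.

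**Figure D1:**
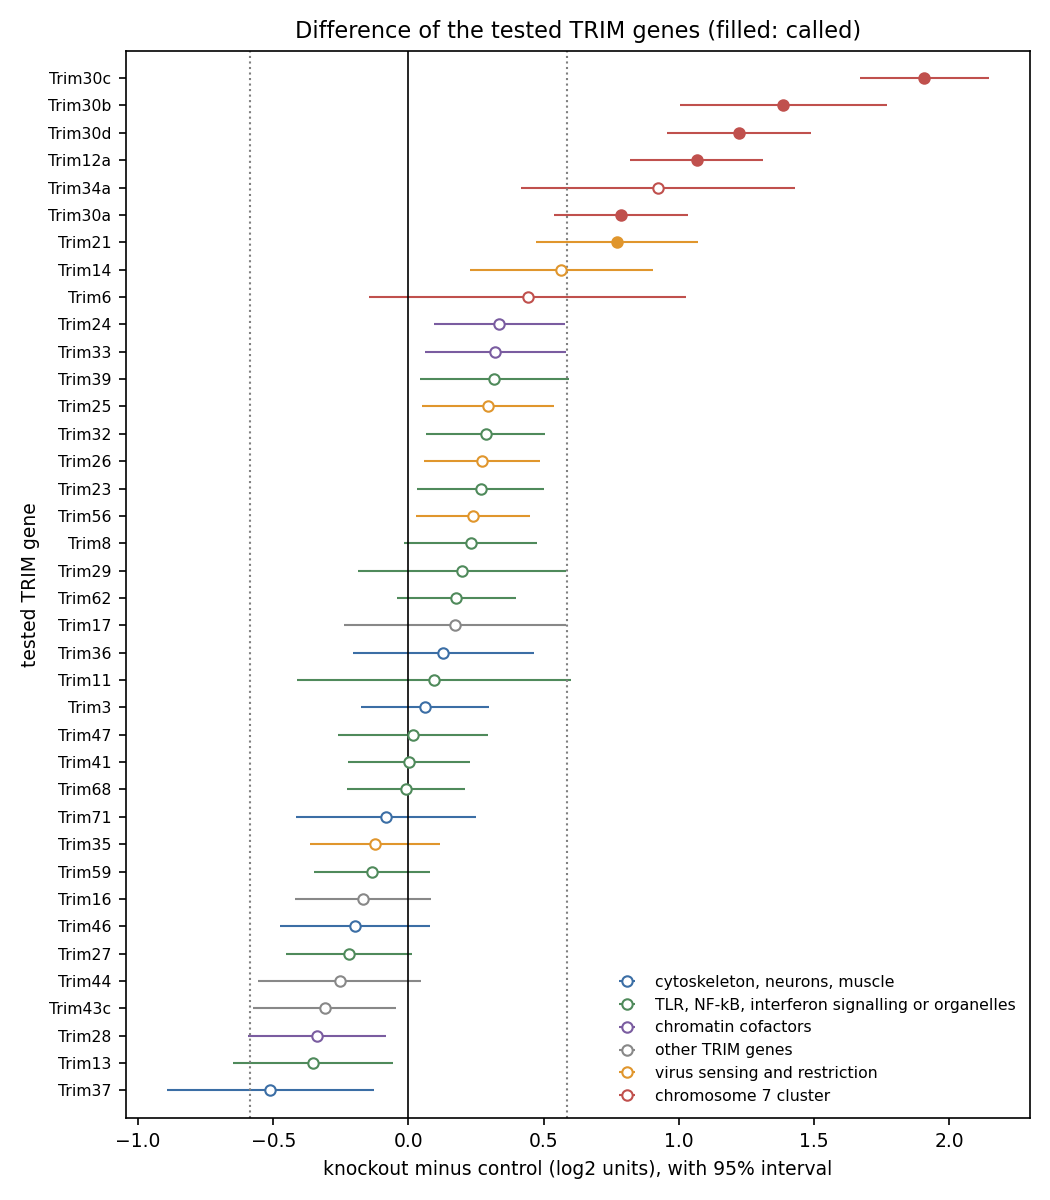
Difference between knockout and control (x axis, log2 units) of each of the 38 tested TRIM genes (y axis), with limma's 95% interval, coloured by role; filled points were called and dotted lines mark 1.5-fold in each direction. The 6 called genes and Trim34a lie to the right of the upper 1.5-fold line, and no gene lies to the left of the lower one.

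**Figure D2:**
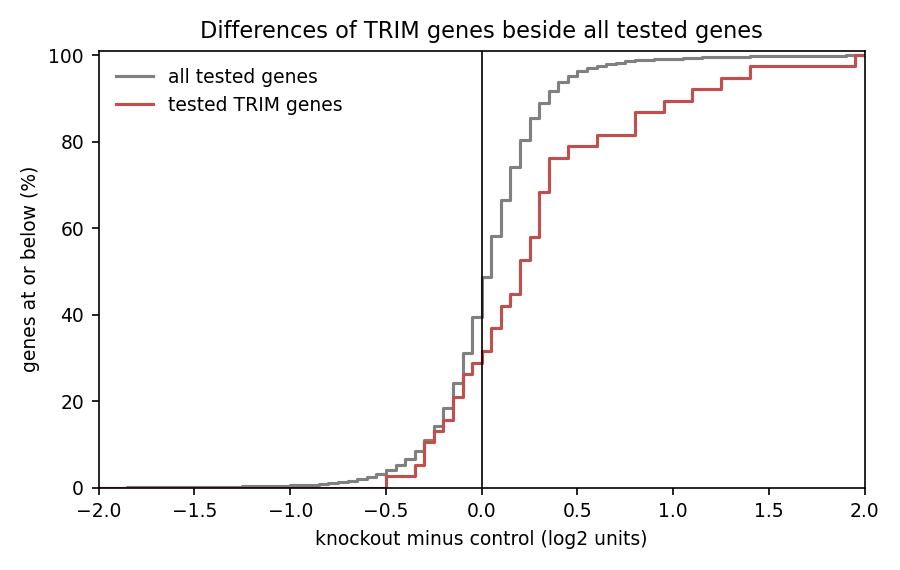
Percentage of genes (y axis) whose difference between knockout and control lies at or below the value on the x axis (log2 units), for the 38 tested TRIM genes and all 12542 tested genes. The curves lie close together below about -0.1 and part above it: the median is 0.19 for TRIM genes and 0.0076 for all genes.

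Of the 6 risers 5 lie in a single block of neighbouring genes. RefSeq's gene order on chromosome 7 (assembly GRCm38.p6, used for order only, since the files name no build) runs Trim6, Trim34a, Trim5, Trim12a, Trim34b, Trim12c, Trim30b, Trim30c, Trim30a and Trim30d, followed by the pseudogene Trim30e-ps1. These are relatives of the gene of the retroviral restriction factor TRIM5, flanked by olfactory receptor genes. Of the 10 named genes 8 had a single-symbol feature, since Trim5 and Trim34b are named only on features that carry several symbols. Of these 8, Trim12c lay under the filter level and 7 were tested. Knockout arrays lay above both control arrays for 7 of the 8 measured, against 28.8% of all tested genes, and overlapped them for Trim12c. Of the 7 tested 5 were called, against 6.79% of all tested genes, and the median difference of the 8 was 0.99. Trim30b and Trim6 passed the filter only through their knockout arrays, so their direction was partly set by it; with no filter 5 genes of the block were called. Outside this block 1 of 31 tested TRIM genes was called (3.23%, against 6.79% of all tested genes), and the median difference was 0.09. Paralogs in the block are close in sequence, so a probe may read more than 1 of them, and the predicted gene Gm38525 overlaps Trim30b in RefSeq.

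Trim30c, a paralog of Trim30a, showed the largest difference of the family. It read 4.88 and 4.76 in control arrays and 6.69 and 6.77 in knockout arrays. Both knockout arrays stood far above both controls, and the arrays within a genotype differed little. The means were 4.82 ± 0.09 and 6.73 ± 0.06 (SD, n = 2 each), a difference of 1.91 (SE 0.09, 3.75-fold, limma adjusted p = 0.0024). Among all tested genes it ranked 12 by p-value.

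Trim30b read 3.40 and 3.07 in control and 4.75 and 4.49 in knockout arrays. Its controls lay below the filter level, so it passed the filter only through its knockout arrays, and a gene that does so had to differ. The difference was 1.39 (SE 0.15, limma adjusted p = 0.012), and 0.023 was the limma adjusted p with no filter; the fold is uncertain at such low control values. Trim30d, a further paralog, read 7.51 and 7.70 in control and 8.87 and 8.78 in knockout arrays. The groups were well apart, with a difference of 1.22 (SE 0.11, 2.34-fold, limma adjusted p = 0.0074).

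Trim30a encodes a ligase known for dampening Toll-like receptor signalling by removal of the TAB2 and TAB3 adaptors of the kinase TAK1. It read 4.97 and 5.12 in control and 5.88 and 5.78 in knockout arrays. The groups did not overlap, and the difference of 0.79 (SE 0.10, 1.73-fold, limma adjusted p = 0.016) was the smallest of the 5 called genes in the block. The TAB2 and TAB3 genes themselves differed by 0.20 (limma adjusted p = 0.22) and 0.19 (limma adjusted p = 0.42). The pseudogene Trim30e-ps1, at 1.96 to 2.23 on the 4 arrays, was not tested.

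Trim12a belongs with Trim12c and Trim5 to the mouse genes most closely related to primate TRIM5. It read 6.89 and 6.72 in control and 7.87 and 7.87 in knockout arrays, a difference of 1.07 (SE 0.10, 2.09-fold, limma adjusted p = 0.0079). The knockout arrays were alike to the second decimal and stood above both controls. Trim12c stayed at 2.06 to 2.89, under the filter level, and its groups overlapped.

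Trim34a read 6.10 and 5.56 in control and 6.90 and 6.61 in knockout arrays. The groups did not overlap, but the arrays within each genotype were further apart than for the called genes, and the difference of 0.92 (SE 0.20, 95% interval 0.42 to 1.43) had a limma adjusted p of 0.058 and was not called. Trim6, whose product makes free ubiquitin chains that activate the kinase IKKε, read 3.33 and 3.34 in control and 3.41 and 4.14 in knockout arrays. A single knockout array carried its difference of 0.44 (limma adjusted p = 0.31), and 3 of the 4 values lay under the filter level.

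**Figure D3:**
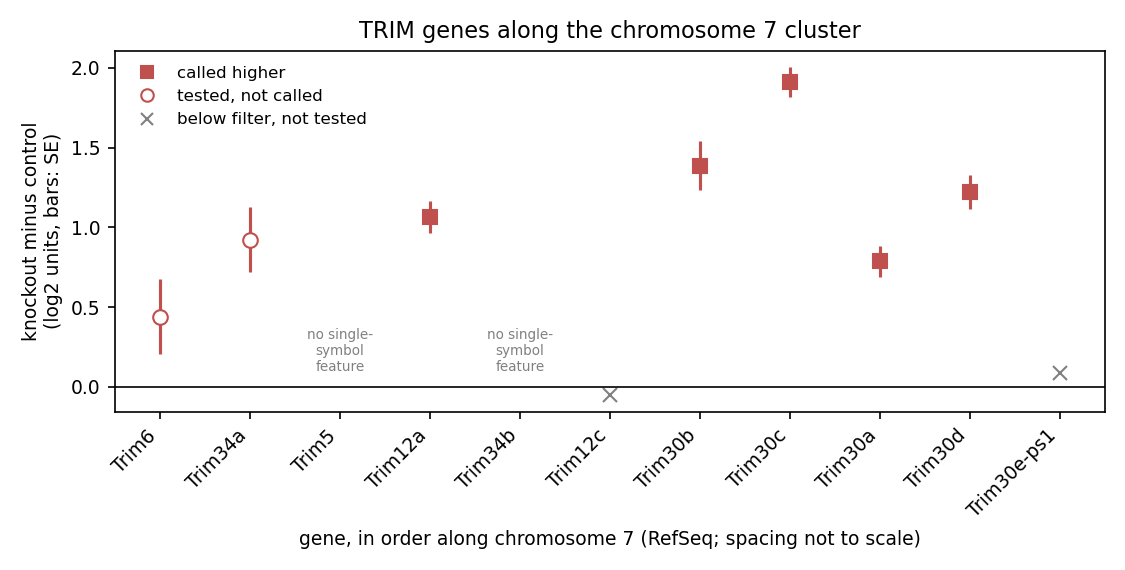
Difference between knockout and control (y axis, log2 units, bars are limma's SE) of the TRIM genes of the chromosome 7 block in RefSeq order (x axis, spacing not to scale). The called genes run from Trim12a to Trim30d, with values of 0.79 to 1.91, whereas Trim12c and Trim30e-ps1 were below the filter level and lie near 0.

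**Figure D4:**
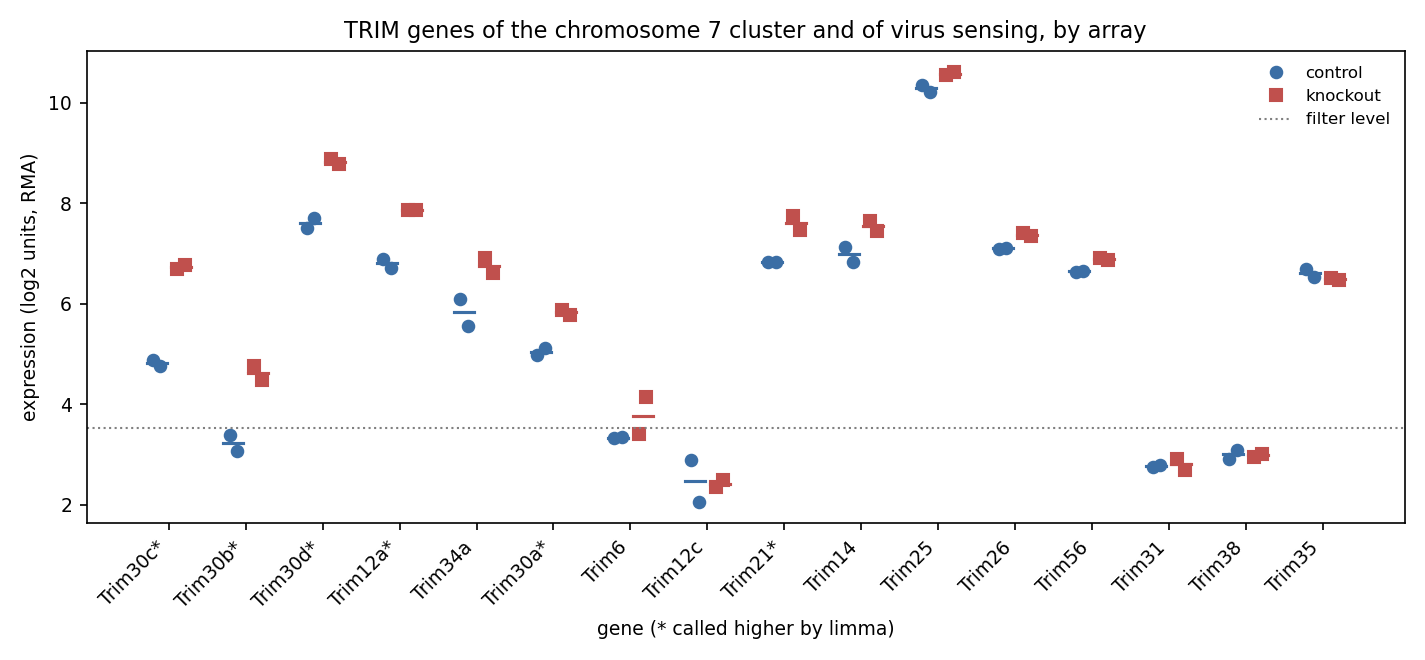
Expression on each array (y axis, log2 units, points) with the group mean (line) for the 16 measured TRIM genes of the block and of the virus sensing list (x axis); stars mark called genes and the dotted line the filter level. Both knockout points lie above both control points for 12 genes and below them for Trim35, and the groups overlap for Trim12c, Trim31 and Trim38. Over all tested genes, knockout arrays lay above for 28.8%.

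The gene starts of the risers were examined for the interferon-stimulated response element (ISRE), a site bound by interferon regulatory factors. RefSeq promoter windows of GRCm38.p6, from 250 bases before to 50 bases after a gene start, matched 49 of the 64 members with 63 windows. The core searched was GAAA, any 2 bases and GAAA again, on both strands, with overlapping matches counted separately. It was found in 1079 of 27025 genes with such a window (3.99%; 3.44% of all 32851 windows) and in 8 of the 49 TRIM genes (16.3%). Of the 6 called genes 4 held it (Trim30d, Trim30a, Trim12a and Trim21), of 21 tested and uncalled genes 2 (Trim34a and Trim26), and of 22 untested genes 2 (Trim12c and Trim2). A match is a run of letters and not a shown binding site. The windows of the 6 called genes and of Trim34a are printed 5′ to 3′ along the gene's strand, to show which hold the core and where. Capitals mark the core or, in Trim30c, the stretch that aligns with the Trim30d core; the Trim30b window has neither.
Trim30d, chr7:104507800-104508099, minus strand: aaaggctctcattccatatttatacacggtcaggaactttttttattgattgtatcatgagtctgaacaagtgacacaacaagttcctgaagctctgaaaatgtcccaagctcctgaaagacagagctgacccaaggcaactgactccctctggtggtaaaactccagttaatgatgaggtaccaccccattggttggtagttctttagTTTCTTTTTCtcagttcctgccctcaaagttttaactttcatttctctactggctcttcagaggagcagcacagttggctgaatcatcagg
Trim30a, chr7:104465144-104465443, minus strand: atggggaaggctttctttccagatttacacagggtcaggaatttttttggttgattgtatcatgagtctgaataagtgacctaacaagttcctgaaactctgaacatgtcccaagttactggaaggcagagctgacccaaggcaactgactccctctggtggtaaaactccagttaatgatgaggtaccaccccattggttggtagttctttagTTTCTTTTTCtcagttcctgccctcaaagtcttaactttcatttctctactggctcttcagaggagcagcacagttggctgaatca
Trim12a, chr7:104315446-104315745, minus strand: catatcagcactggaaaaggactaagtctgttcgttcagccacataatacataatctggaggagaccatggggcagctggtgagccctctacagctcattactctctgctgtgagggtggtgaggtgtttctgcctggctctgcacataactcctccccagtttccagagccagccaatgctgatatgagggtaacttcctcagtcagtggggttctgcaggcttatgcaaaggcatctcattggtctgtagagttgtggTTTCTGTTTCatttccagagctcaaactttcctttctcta
Trim34a, chr7:104244207-104244506, plus strand: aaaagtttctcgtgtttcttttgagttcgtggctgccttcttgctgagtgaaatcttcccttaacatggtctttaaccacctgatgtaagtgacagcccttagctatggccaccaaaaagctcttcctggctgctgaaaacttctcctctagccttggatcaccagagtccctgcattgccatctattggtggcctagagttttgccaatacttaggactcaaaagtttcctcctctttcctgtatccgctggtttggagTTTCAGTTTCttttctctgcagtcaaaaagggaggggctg
Trim21, chr7:102565433-102565732, minus strand: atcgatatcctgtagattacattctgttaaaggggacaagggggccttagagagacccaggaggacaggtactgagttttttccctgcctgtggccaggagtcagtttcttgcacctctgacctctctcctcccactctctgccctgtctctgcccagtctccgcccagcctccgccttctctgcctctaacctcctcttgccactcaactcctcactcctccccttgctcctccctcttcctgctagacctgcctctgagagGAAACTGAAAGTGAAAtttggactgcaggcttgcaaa
Trim30c, chr7:104400729-104401028, minus strand: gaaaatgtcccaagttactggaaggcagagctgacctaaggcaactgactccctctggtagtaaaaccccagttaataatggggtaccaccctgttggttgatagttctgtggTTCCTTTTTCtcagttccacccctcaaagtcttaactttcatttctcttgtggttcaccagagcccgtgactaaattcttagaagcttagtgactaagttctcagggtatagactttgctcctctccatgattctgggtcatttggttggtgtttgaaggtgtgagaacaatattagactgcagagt
Trim30b, chr7:104358597-104358896, minus strand: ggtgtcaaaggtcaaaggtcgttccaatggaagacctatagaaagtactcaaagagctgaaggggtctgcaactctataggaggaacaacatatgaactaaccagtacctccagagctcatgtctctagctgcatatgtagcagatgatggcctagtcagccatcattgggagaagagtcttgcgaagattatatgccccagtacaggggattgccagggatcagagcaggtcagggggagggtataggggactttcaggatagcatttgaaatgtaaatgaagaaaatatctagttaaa

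In the Trim30d and Trim30a windows the core began 41 and 36 bases before the gene start, and the windows were identical at 277 of 305 aligned columns (90.8%). The Trim12a and Trim12c windows were 72.9% identical. Trim30a has a further window, from a start nearer Trim30c, in which the core began 2 bases after the start; it was 65.8% identical to the Trim30d window and 70% to the other Trim30a window. The Trim6 window was left out of these alignments. Among the block windows that were aligned, the other 24 pairs were 44.9% to 55.1% identical. The Trim21 window was 46.9% to 51% identical to the aligned windows of the block, a range that overlaps. Trim30c, the largest riser, had no exact core. Over the whole window it was 44.9% identical to Trim30d, among the lowest values of the aligned block pairs. A local alignment found a stretch of 176 columns with 86.9% identity, and the stretch facing the core, 137 bases before the annotated start of Trim30c, differed by the substitution T3C, counted from the first base of the Trim30d core as printed. The Trim30b window held no core either, and was 47.5% identical to that of Trim30d. In Trim12a and Trim34a the core began 10 bases after the start. Trim21 held 2 overlapping cores that began 13 and 19 bases after the start. Trim12c held the core 29 bases before its start, yet its feature was dim on all arrays, and Trim26 held 2, which began 160 and 154 bases before the start.

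A STAT site, TTCNNNGAA, was found in 6 of the 49 TRIM genes (12.2%) against 9.55% of all genes, and among the called genes in Trim30c alone. A kappaB-like pattern, GGG, any 5 bases and CC, was found in 27 of 49 (55.1%) against 53.5% of all genes and in 4 of the 6 called genes.

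**Figure D5:**
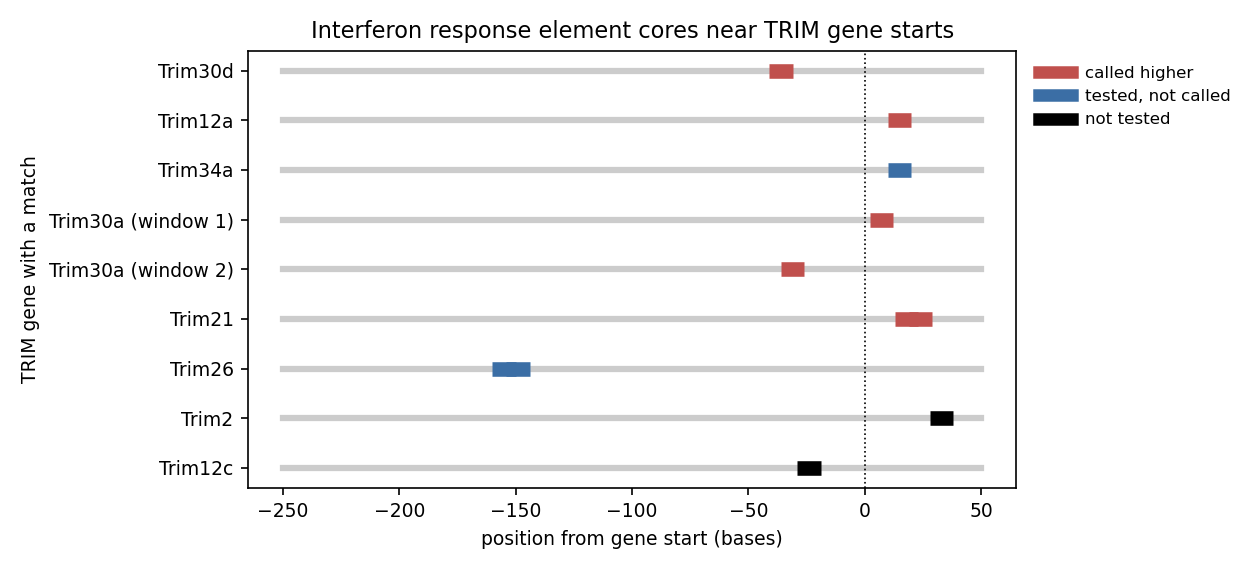
Position of each response element core (coloured blocks) relative to the gene start (x axis, bases) in the promoter windows (grey bars) of the 8 TRIM genes that held it (y axis), ordered by difference. Except in Trim26, the cores lie within 50 bases of the start.

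Trim21 was the one called member outside the block. It encodes the cytosolic antibody receptor that directs antibody-coated virus to the proteasome, and lies elsewhere on chromosome 7. It read 6.84 and 6.84 in control and 7.75 and 7.47 in knockout arrays, with a clear gap between the groups. The difference was 0.77 (SE 0.12, 1.71-fold, limma adjusted p = 0.028). Trim68, 7 protein-coding genes away from it, differed by -0.01 (95% interval -0.23 to 0.21), and Trim3, also on chromosome 7, by 0.06 (95% interval -0.18 to 0.30). Neither was called.

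Of the 5 other tested genes known from virus sensing and restriction, none was called, against 6.79% of all tested genes. Knockout arrays lay above both controls for 4 of them, as they did for 28.8% of all tested genes. Trim14, whose product works with the RNA sensing adaptor MAVS, read 7.13 and 6.83 in control and 7.64 and 7.46 in knockout arrays. Its groups did not overlap, and the difference of 0.57 (95% interval 0.23 to 0.90, limma adjusted p = 0.071) fell just short of 1.5-fold. Trim25, which ubiquitinates the RNA sensor RIG-I, read 10.36 and 10.21 against 10.55 and 10.61. Its difference of 0.29 (95% interval 0.05 to 0.54, limma adjusted p = 0.14) was small beside those of the block. Trim26 differed by 0.27 (limma adjusted p = 0.13) and Trim56, an enhancer of antiviral signalling, by 0.24 (limma adjusted p = 0.16), and Trim35 by -0.12 (limma adjusted p = 0.49). Trim38 and Trim31 lay under the filter level. Within this list of 8 measured genes 6 were tested, 1 rose (3.30% of all tested genes did), and the median difference was 0.28.

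None of the 13 tested genes with described roles in Toll-like receptor, NF-kB or interferon signalling or in organelles was called. Over all tested genes 6.79% were called, a share at which a list of 13 may well hold none. The median difference of the 13 was 0.09. At the upper end stood Trim39 at 0.32 (limma adjusted p = 0.16), Trim32 at 0.29 (0.12), Trim23, a ligase with a GTPase domain, at 0.27 (0.16), and Trim8, a regulator of TAK1, at 0.23 (0.23), each with limma adjusted p in brackets. Trim8 read 8.87 and 8.78 in control and 8.98 and 9.13 in knockout arrays, with no overlap. At the lower end Trim13, a ligase of the endoplasmic reticulum membrane, read 6.16 and 6.12 against 5.92 and 5.65, a difference of -0.35 (limma adjusted p = 0.14). Trim27 differed by -0.22 (limma adjusted p = 0.22). Trim41, Trim47 and Trim68 differed by 0.00, 0.02 and -0.01. Trim11 could not be placed, because its knockout arrays read 6.83 and 6.22 around controls of 6.43 and 6.44.

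The chromatin cofactors Trim24, Trim33 and Trim28 were tested and none was called, against 6.79% of all tested genes. Trim28, also known as KAP1, the corepressor of KRAB zinc finger proteins that silences retroelements, read 8.18 and 8.11 in control and 7.90 and 7.72 in knockout arrays. Its knockout arrays lay below both controls, with a difference of -0.34 (95% interval -0.59 to -0.08, limma adjusted p = 0.12). Trim24 and Trim33, a regulator of SMAD4, lay the other way, at 0.34 (limma adjusted p = 0.11) and 0.32 (limma adjusted p = 0.14). Trim24 read 7.67 and 7.79 in control and 8.01 and 8.12 in knockout arrays, and Trim33 7.61 and 7.61 against 7.83 and 8.04. The groups of all 3 did not overlap, as was the case for 55.3% of all tested genes.

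Among genes of the cytoskeleton, neurons and muscle 5 of 12 were tested and none was called, against 6.79% of all tested genes. Trim37, which acts at centrosomes and peroxisomes and is mutated in mulibrey nanism, had the largest negative difference of the family. It read 8.04 and 8.29 in control and 7.83 and 7.49 in knockout arrays. The groups did not overlap, and the difference was -0.51 (95% interval -0.89 to -0.13, limma adjusted p = 0.11). Trim36 differed by 0.13 and Trim71, an RNA-binding regulator of stem cells, by -0.08, and the groups overlapped in each. The muscle ligase genes Trim54, Trim55, Trim63 and Trim72 and the neuronal genes Trim2, Trim9 and Trim67 were not tested.

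Of the remaining members Trim44, which lacks a RING finger, differed by -0.25 (limma adjusted p = 0.26), Trim43c by -0.31 (limma adjusted p = 0.15), Trim16 by -0.17 and Trim17 by 0.17. Over the 32 tested and uncalled TRIM genes, 24 had a 95% interval that stayed within 1.5-fold in each direction, so a larger change is outside the interval for these. For the other 8 the interval reached past 1.5-fold. The 26 members below the filter level had means of 2.07 to 3.50 and differences of -0.37 (Trim45) to 0.35 (Trim43b). Their groups overlapped in 23, and the matching share over all genes below the filter was not computed.

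With an array left out, calls over all genes fell from 852 to between 96 and 174. Without control replicate 1 or 2, 4 and 3 TRIM genes were called, and without knockout replicate 1 or 2, 1 and 3; Trim30c passed in all 4 cases. Trim30d was lost without knockout replicate 1 (limma adjusted p = 0.055), Trim30b without control replicate 2 (0.055) or knockout replicate 1 (0.067), and Trim12a without knockout replicate 1 (0.061) or 2 (0.062), with limma adjusted p in brackets. Trim30a (0.056 to 0.11) and Trim21 (0.067 to 0.12) were lost in each case. The differences themselves moved less, to 0.98 to 1.15 for Trim12a, 0.71 to 0.86 for Trim30a and 0.63 to 0.91 for Trim21. Each such fit leaves a genotype with 1 array, whose spread is taken from the other genotype.

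Family members that carry other symbols were set beside these genes. Pml, the scaffold of nuclear bodies and also called Trim19, read 7.91 and 7.89 in control and 8.72 and 8.65 in knockout arrays, a rise of 0.79 (SE 0.09, limma adjusted p = 0.012). Mid1, or Trim18, encodes a microtubule-associated ligase known for directing the PP2A catalytic subunit to degradation. It read 8.57 and 8.76 in control and 9.86 and 9.88 in knockout arrays, and rose by 1.20 (SE 0.10, 2.30-fold, limma adjusted p = 0.0070). Mefv, the pyrin gene, differed by -0.05 (limma adjusted p = 0.87), and Mid2 lay under the filter level. Of these 4 genes 3 were tested and 2 rose, with both knockout arrays above both controls in each of the 2. Over all tested genes 3.30% were called higher, and knockout arrays lay above for 28.8%.

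For the lists that follow, the shares over all tested genes were 3.30% called higher and 3.49% called lower. Of 13 tested genes of ubiquitin and the E2 enzymes that TRIM ligases work with, 1 rose and 0 fell, with a median of 0.08. The riser was Uba7, the E1 enzyme of the ubiquitin-like protein ISG15, at 0.79 (limma adjusted p = 0.016). Ube2l6, the E2 of ISG15, differed by 0.46 (limma adjusted p = 0.060). Ube2n, an E2 of signalling chains, and Ube2d3 differed by -0.02 and -0.08. Of 16 tested signalling partners and substrates 3 rose and 0 fell: Irf7 by 2.19, Ifih1, the RNA sensor MDA5, by 1.08 and Ddx58, which encodes RIG-I, by 0.83. The adaptor Mavs differed by 0.24 and the ligase Traf6 by 0.01, and neither passed. All 7 measured genes of the interferon context list rose, with Ifnb1, the gene of interferon beta, at 1.26 (limma adjusted p = 0.012), Stat2 at 0.86, Irf9 at 0.51, Isg15 at 0.77, Usp18 at 1.22 and Oasl1 at 2.82. Irf7 belongs to both lists. The called TRIM genes rose by 0.77 to 1.91.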

How the data were processed

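The deposited values are log2 expression, which the authors computed by RMA, per the design text of the series (background adjustment, normalization, log transform); oligo is also named in the submitters' processing notes, and versions are not given in the sources used here. A shift in the RNA content of whole cells is therefore not visible. Symbols came from the platform's probe annotation; all 64 TRIM gene IDs matched RefSeq, and 0 symbols changed. A further 7 features that name a TRIM gene beside other symbols were left out. The knockout minus control difference was fitted in limma 3.58.1 under R 4.3.3 (lmFit, eBayes, two-sided, unblocked), with 2 residual and 3.51 prior degrees of freedom, on the 12542 genes whose mean reached the median feature, 3.53. The number of arrays limits the precision. Arrays with the same replicate number did not deviate together (r = -0.03 across features). Members, lists and motifs were chosen with earlier results of these data known. The naming rule took called TRIM genes, those past 1.5-fold, those nearest the threshold, the extremes of each role list, Ppp2ca, and the called and up to 4 uncalled genes of the other lists; further TRIM genes and markers are named for completeness, chosen after their values were seen. Promoters were aligned with scores of 1 for a match, -1 for a mismatch, -2 to open and -0.5 to extend a gap. The fit was tested on simulated data of 2 against 2 arrays, with 200 changed genes among 12542. It recovered 18.5% of 1.5-fold, 83.2% of 2-fold and 96.9% of 3-fold changes, and 4.94% of the calls were false. An uncalled gene may therefore still differ by about 1.5-fold, unless its interval says otherwise. Alternatives covered the filter, the normalization, the choice of feature, single arrays left out, a block for replicate number, a variance trend and array weights.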

Additional observations from a re-analysis of the deposited data

How the results depend on the processing

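None of the 6 called TRIM genes changed direction under the 12 alternatives (11 for Trim30b, which the stricter filter dropped). This was largely fixed in advance, because their groups did not overlap and leaving out an array could not turn the sign. The filter, block, trend and weights left each of their differences as it was. Trim30c was called in every alternative that kept all 4 arrays, and its difference was 1.85 to 1.97 over the 12. With an intensity trend in limma's variance, 10 TRIM genes were called higher and 2 lower, the latter Trim28 and Trim37, and 1584 genes in all; the added risers were Trim34a, Trim14, Trim24 and Trim25. With a single array left out, 1 to 4 TRIM genes were called higher, 1 to 4 in the block on chromosome 7. With no filter the median difference was 0.084 over all 64 members, and Trim21 was lost (limma adjusted p = 0.061); the stricter filter called 7, dropping Trim30b and adding Trim34a and Trim14. With the replicate number as a block, which the data do not bear out as a pairing, 5 TRIM genes were called higher: Trim21 (limma adjusted p = 0.059) and Trim30a (0.053) were lost and Trim34a (0.041) was gained. Uncalled genes with small differences turned sign; the cause was not tested. Over all genes, 852 calls became 333 with no filter, 1354 with the stricter filter, 312 with the block and 96 to 174 with an array left out. Trim47 was at -0.016 with quantile normalization and -0.025 with median centring, and Trim41 at -0.040 with centring. With an array left out, ranges were -0.21 to 0.40 for Trim11, -0.0068 to 0.35 for Trim17, -0.011 to 0.13 for Trim3, -0.041 to 0.30 for Trim36, -0.053 to 0.057 for Trim41, -0.087 to 0.12 for Trim47, -0.037 to 0.022 for Trim68 and -0.21 to 0.045 for Trim71.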

Other observations

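Of the TRIM genes 5 had more than 1 single-symbol feature. The dimmer feature of Trim27 differed by -0.29, beside -0.22 for the one used. The dimmer feature of Trim34a, with a mean of 1.77, differed by -0.04, whereas the one used differed by 0.92. Both features of Trim7 lay under the filter level and had differences of 0.18 and 0.24.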
